A study of Mus musculus with 12 samples.

Results

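The genes described here encode the MHC class I presentation machinery: the heavy chains H2-K1 and H2-D1, the light chain B2m, the peptide transporter subunits Tap1 and Tap2, the loading factor Tapbp, the immunoproteasome subunits Psmb8, Psmb9 and Psmb10, and the trimming peptidase Erap1. The rule went by symbol and took in every non-control spot whose gene name in the array files was one of these (Erap1 also under its older symbol Arts1), which gave 10 genes among 27677 gene names. Together they had 18 probes on 36 spots, of 41174 distinct probes on each array. C57MG is a single mouse mammary epithelial cell line. After a change to plain DMEM without serum, monolayers were treated for 24 h with recombinant human Rspo2 at 100 ng/ml, with recombinant mouse Wnt3a at 100 ng/ml, with both at these doses, or with BSA, the carrier protein, as the vehicle control. Each group had 3 arrays, labeled as biological replicates and hybridized in a single color.

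Cells present fragments of their own proteins on class I molecules. The proteasome cuts proteins into peptides, the Tap1/Tap2 transporter moves them into the endoplasmic reticulum, Erap1 trims their ends, and Tapbp (tapasin) bridges the transporter to a heavy chain that is already paired with B2m. Interferons raise the transcription of most of these genes through factors such as Stat2, Irf9 and Irf1, and non-immune cells such as mammary epithelium express the pathway at a basal level.

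The epithelial label was only partly borne out by marker genes. Of 7 epithelial markers, 2 were detected (Krt8 and Cldn3), and Cdh1, Epcam, Krt18, Krt19 and Cldn7 were not, whereas 6 of 7 mesenchymal markers were detected, among them Vim, Col1a1 and Pdgfrb. In units of the array's 75th percentile, the detected epithelial markers summed to between 0.114 and 0.149 on the BSA arrays and between 0.063 and 0.109 on those with both proteins, and Krt8 fell. The detected mesenchymal markers summed to between 235 and 256 and between 242 and 244, with Pdgfra, Pdgfrb and Col3a1 lower in the test. Of 6 basal and myoepithelial markers 4 were detected, which summed to between 132 and 140 and between 219 and 257. These 4 did not move together: with both proteins 2 were higher and 1 was lower in the test. Of 4 endothelial markers only Cdh5 was detected, with a median of 2.41 on the BSA arrays and of 1.71 on those with both proteins. Of 12 leukocyte markers 6 were detected, and the pan-leukocyte gene Ptprc was not. The detected leukocyte markers summed to between 1.83 and 1.92 on the BSA arrays and between 1.87 and 1.95 on those with both proteins. They summed to between 2.32 and 2.47 on the Rspo2 arrays and between 2.28 and 2.44 on the Wnt3a arrays. Their part in the results was not tested, and fewer cells of a type and less RNA per cell cannot be told apart in such bulk samples. Between 51.3% and 64.2% of probes were well above background on an array. Groups were spread unevenly over 3 slides. Rspo2 replicate 1 shared slide 1 with every BSA array, Wnt3a replicate 3 shared slide 3 with every array of both proteins, and slide 2 carried the remaining pairs of Rspo2 and Wnt3a arrays.

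The machinery was expressed in all 4 groups, and its mRNA changed little. A probe counted as detected if some group had it well above background on each of its 3 arrays. This held for 16 of the 18 probes, which covered all 10 genes, and these 16 were well above background on all 12 arrays. Signals are given below as multiples of the array's 75th percentile ("relative signal"), and changes as differences of mean log2 signal, tested with limma and adjusted by the Benjamini-Hochberg method over 22751 detected probes. A probe was called if its adjusted p was under 0.05 and it differed by 2-fold or more, and "rose" and "fell" are used for an adjusted p under 0.05 at any fold. All p-values given for single probes come from these limma fits.

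With Rspo2, 0 of the 16 probes were called, where 0.721% of all detected probes were called. At an unadjusted limma p under 0.05, 4 of the 16 differed, none of them by 2-fold, and the methods' t-test also called 0. At the same unadjusted threshold, 10 differed with Wnt3a and 11 with both. The share of all detected probes at an unadjusted p under 0.05 was not computed, here or below. These counts are therefore not read as particular to the members. With Wnt3a 1 probe was called against a background of 2.52%, and with both proteins the same probe was called against 5.08%. That probe was the third probe named B2m. The 95% confidence intervals of the change lay wholly within 2-fold for 14 of 16 probes with either protein alone and for 15 with both. The 3 treated and 3 BSA arrays did not overlap for 7 of 16 probes with Rspo2 (43.5% of all detected probes), for 10 with Wnt3a (45.5%) and for 11 with both (54%), so the members' shares were near the background with Rspo2 and somewhat above it otherwise.

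At any fold, the test found more member probes lower than higher. With Rspo2, 2 probes fell and 0 rose, where 5.92% of all probes fell and 10.9% rose. With Wnt3a, 6 fell and 0 rose, where 13.2% fell and 18.3% rose. With both, 7 fell and 2 rose, where 17.3% of all probes fell and 21.9% rose. B2m probe 3 was among the falls each time, and both Tapbp probes were with Wnt3a and with both. Counted by the brightest probe of each of the 10 genes, 1, 3 and 4 genes fell with Rspo2, Wnt3a and both. By that count 0, 0 and 2 rose. Taking the brightest probe of each gene, the median log2 change of the 10 genes was 0.08, -0.12 and -0.15 for Rspo2, Wnt3a and the combination in turn, and over all 16 member probes it was -0.02, -0.29 and -0.27. Under quantile normalization the latter were -0.07, -0.35 and -0.30. The median of all detected probes was 0.01, 0.00 and 0.04. The 3 comparisons share the BSA arrays. Because BSA arrays lay only on slide 1 and arrays with both proteins only on slide 3, a model that adds the slide rests on the few arrays that link the slides; in it, none of these 17 values kept an adjusted p under 0.05.

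**Figure D1:**
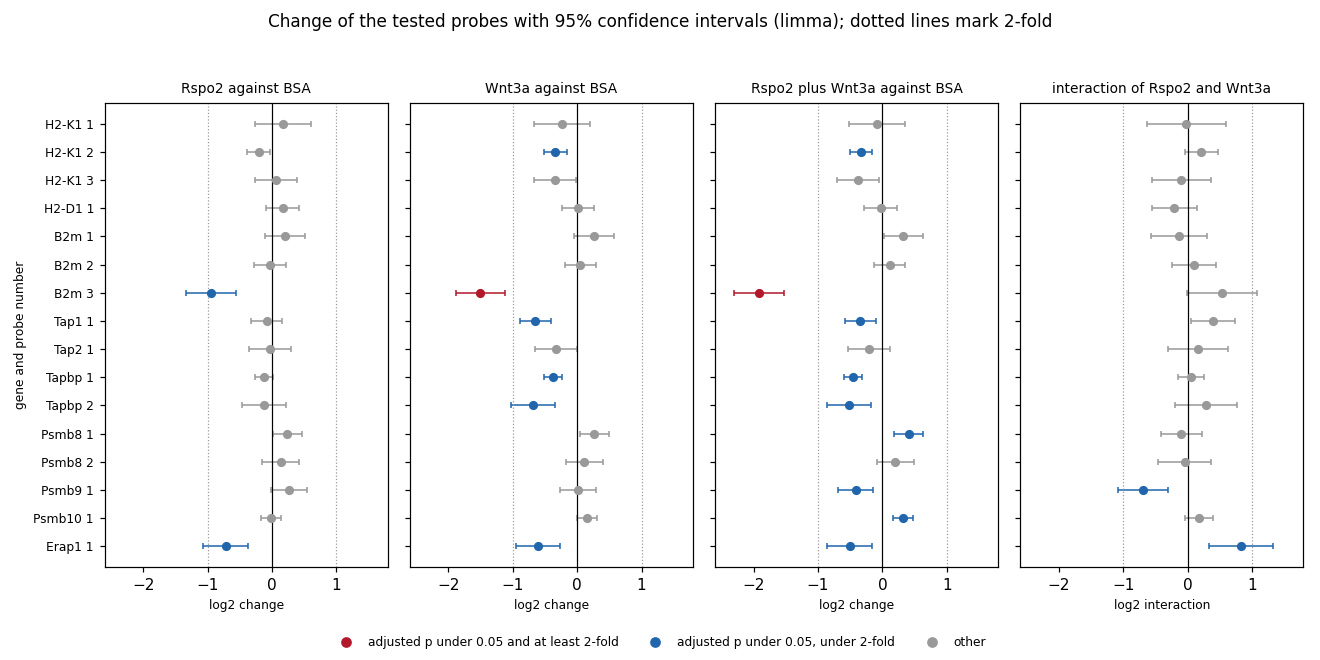
Log2 change (x axis) of the 16 tested probes (y axis, gene and probe number) in the 3 comparisons with BSA, and the interaction of both proteins, with 95% confidence intervals from limma and 3 arrays per group. Only B2m probe 3 passed both the adjusted p and the 2-fold line, at -1.50 with Wnt3a and -1.92 with both; the other points lie within 2-fold.

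B2m, the invariant light chain that every classical class I molecule needs to fold and reach the surface, had 3 probes that gave different answers. The gene lies on chromosome 2 from 122147687 to 122153082 in GRCm38.p6. Probes 1 and 2 were designed to its RefSeq mRNA. Probe 3 carries the same gene name but was designed to another cDNA, which the array files describe as an unclassifiable product. By the coordinates in those files, whose genome build is not named, it lies 3802 bases from probe 1. The gene spans 5396 bases, but only the distance was worked out here and not its direction. Whether probe 3 lies inside the gene was therefore not determined.

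The mRNA probes stayed near their BSA level. Probe 1 gave relative signals of 40.3, 42.5 and 41.2 with BSA, 45.0, 42.0 and 56.7 with Rspo2, 44.2, 48.6 and 57.1 with Wnt3a, and 60.6, 49.7 and 46.1 with both. All 3 arrays with both proteins were above all 3 with BSA, as were those with Wnt3a, but the spread within the treated groups was wide and the change with both, 0.32 ± 0.14 (SE), had an adjusted p of 0.0881. Probe 2, averaged over 10 spots whose coefficient of variation within an array was 2.71 to 7.75%, gave 15.3, 14.9 and 14.4 with BSA, 15.2, 13.0 and 15.4 with Rspo2, 13.5, 15.0 and 17.9 with Wnt3a, and 17.3, 15.7 and 15.2 with both. Its groups overlapped in every comparison, and its change with both was 0.11 ± 0.11 (adjusted p = 0.459). Under quantile normalization the changes with both were 0.01 for probe 1 and -0.13 for probe 2.

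Probe 3 fell with each treatment. It gave 0.904, 0.739 and 0.661 with BSA, 0.397, 0.343 and 0.450 with Rspo2, 0.241, 0.299 and 0.269 with Wnt3a, and 0.258, 0.186 and 0.170 with both. No treated array overlapped the BSA arrays, Rspo2 and Wnt3a arrays did not overlap each other, and the arrays with Wnt3a alone and with both overlapped. Relative to BSA it fell by 0.95 ± 0.17 with Rspo2 (adjusted p = 0.0131), by 1.50 ± 0.17 with Wnt3a (adjusted p = 0.000369) and by 1.92 ± 0.17 with both (adjusted p = 2.1e-05), that is, to 51.7%, 35.3% and 26.4% of its BSA level. The 95% interval of the last change ran from -2.30 to -1.54, and those of probes 1 and 2 ran from 0.02 to 0.63 and from -0.13 to 0.36, so they did not meet.

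On slide 1 the Rspo2 array was lower than the BSA arrays by 0.94 on the log2 scale for probe 3. On slide 2 the Wnt3a arrays lay below the Rspo2 arrays by 0.55, and on slide 3 the arrays with both lay below the Wnt3a array by 0.42. The order of the means was thus the same within slides, but slides 1 and 3 had only 1 array on one side. Over all arrays, neither Wnt3a against Rspo2 (-0.55, adjusted p = 0.170) nor both against Wnt3a (-0.42, adjusted p = 0.236) passed the test. With slide as a term probe 3 changed by -0.94 after Rspo2 (adjusted p = 0.198), by -1.49 after Wnt3a (adjusted p = 0.114) and, after the combination, by -1.91 (adjusted p = 0.0664). Without BSA replicate 3 its change with Rspo2 reached 2-fold, as it did without Rspo2 replicate 3, with values between -1.05 and -0.83 over all arrays left out. With normexp background correction its change with Rspo2 was -0.49 (adjusted p = 0.709).

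**Figure D2:**
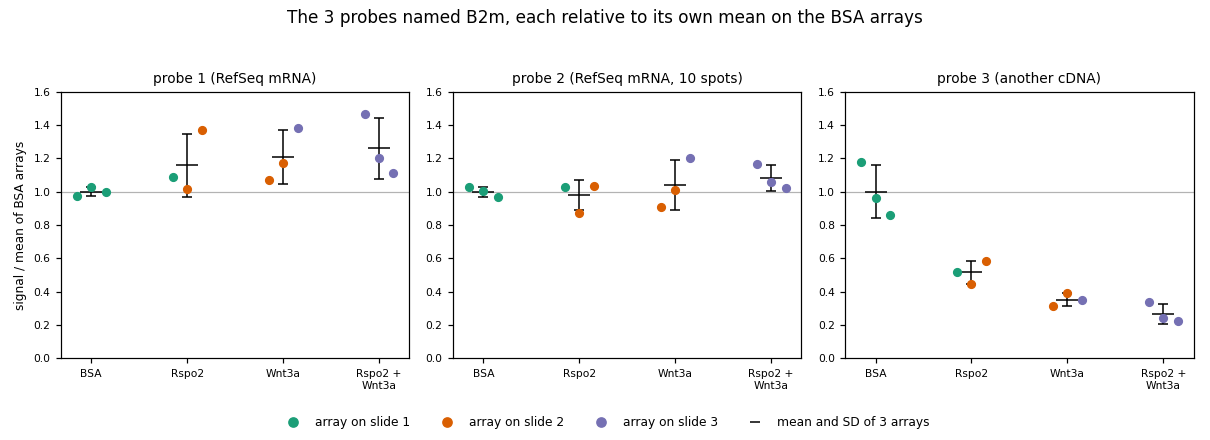
Signal of the 3 probes named B2m on each array, divided by the probe's own mean on the BSA arrays (y axis), for the 4 groups (x axis); points are arrays colored by slide, and bars give mean and SD of 3 arrays. Probes 1 and 2 lie at or above 1 on most treated arrays, while probe 3 is below all BSA arrays on every treated array.

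The promoter window of B2m, 250 bases before to 50 bases after the annotated start, is shown because it holds the known response elements of class I genes next to each other. The sequence is from RefSeq (GRCm38.p6, chr2:122147437-122147736, plus strand), 5' to 3', with motif matches in capitals: an interferon-stimulated response element (GAAA, 2 bases of any kind, GAAA), an NF-kB motif (GGGA, 4 bases of any kind, CC), which matched on both strands with an overlap, and 2 matches to the core of the cyclic AMP response element (TGACG). All motifs were searched on both strands.
B2m promoter: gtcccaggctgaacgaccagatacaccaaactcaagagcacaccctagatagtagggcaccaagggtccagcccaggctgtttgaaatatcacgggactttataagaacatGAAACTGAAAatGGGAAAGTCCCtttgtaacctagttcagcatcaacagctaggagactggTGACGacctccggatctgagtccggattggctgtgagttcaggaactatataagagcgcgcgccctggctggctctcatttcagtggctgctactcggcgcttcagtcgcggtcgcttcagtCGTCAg
The interferon element began 139 bases before the start and the NF-kB motif 127 bases before it. Of 32851 promoter windows of this length, 3.44% held the former, 20.7% the NF-kB motif and 20.8% TGACG.

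The heavy chains H2-K1 and H2-D1, which hold the peptide and are read by CD8+ T cells, did not reach 2-fold with any treatment. H2-K1 lies on chromosome 17 from 33996012 to 34000619 and H2-D1 on the same chromosome from 35263094 to 35267497. H2-D1 probe 1 gave 17.9, 20.9 and 19.9 with BSA, 20.7, 21.2 and 23.8 with Rspo2, 18.5, 18.9 and 21.7 with Wnt3a, and 21.9, 19.0 and 16.8 with both. Its groups overlapped in every comparison, and the intervals of its change reached at most 0.42 above and 0.28 below BSA; under quantile normalization it fell by 0.28 after Wnt3a (adjusted p = 0.038) and by 0.30 after the combination (adjusted p = 0.021). The second probe named H2-D1 was not well above background on any of the 12 arrays and was not tested; the array files describe it as a TL antigen mRNA and place it 996751 bases from probe 1.

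H2-K1 had 3 detected probes, none of them designed to a RefSeq mRNA. Probes 1 and 3 were designed to the same cDNA and lie 284 bases apart by the array coordinates. Probe 2 was designed to another cDNA and lies 3517 bases from probe 1. Probe 2, averaged over 10 spots with a coefficient of variation of 1.65 to 3.18% within an array, gave 9.19, 8.94 and 8.57 with BSA, 7.91, 7.86 and 7.38 with Rspo2, 6.37, 7.06 and 7.70 with Wnt3a, and 7.22, 7.04 and 6.93 with both. Every treated array was below every BSA array. The probe fell by 0.34 ± 0.08 with Wnt3a (adjusted p = 0.00954) and by 0.33 ± 0.08 with both (adjusted p = 0.00787), to 78.9% and 79.4% of the BSA level. With Rspo2 alone its change was -0.21 ± 0.08 (adjusted p = 0.0973). Under quantile normalization the changes were larger, at -0.39 with Rspo2 (adjusted p = 0.0136), -0.56 with Wnt3a and -0.54 with both. Scaled by the 75th percentile of the probes well above background on every array, the change with Rspo2 was -0.30 (adjusted p = 0.028).

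Probe 1 of H2-K1 was far more variable, with 12.3, 15.0 and 13.3 with BSA, 14.6, 13.5 and 17.7 with Rspo2, 9.81, 10.1 and 15.0 with Wnt3a, and 16.0, 12.6 and 10.1 with both. Its groups overlapped in every comparison. The Wnt3a array at 15.0 was the one on slide 3, and the pair at 9.81 and 10.1 were on slide 2. The change of probe 1 with both was -0.09 ± 0.20 (adjusted p = 0.752).

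Probe 3 of H2-K1 gave 2.31, 2.64 and 2.46 with BSA, 2.52, 2.49 and 2.72 with Rspo2, 1.77, 1.82 and 2.25 with Wnt3a, and 2.31, 1.95 and 1.50 with both. Every array that received Wnt3a was below every BSA array, the highest by a narrow margin. Its change was 0.06 with Rspo2, -0.35 ± 0.15 after Wnt3a (adjusted p = 0.0931) and, after the combination, -0.38 ± 0.15 (adjusted p = 0.0596). With the 75th percentile of well-measured probes, the values for Wnt3a and both were -0.47 (adjusted p = 0.0242) and -0.50 (adjusted p = 0.0155), and quantile normalization gave -0.45 with both (adjusted p = 0.0286). Class I heavy chains are close paralogs and probe sequences were not used here, so each of these signals may include related transcripts.

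The promoters of both heavy chains are shown side by side because they carry the same elements in the same order, although the genes lie far apart on the chromosome. Capitals mark, from 5' to 3', the NF-kB motif as above, a shorter form of the interferon-stimulated response element (GAANNGAAA, here on the minus strand), the core of the cyclic AMP response element (TGACG) and the Y box motif (CCAATCA). The windows are chr17:34000298-34000597 (minus strand, the first of 2 starts listed for the gene) and chr17:35262844-35263143 (plus strand) in GRCm38.p6.
H2-K1 promoter: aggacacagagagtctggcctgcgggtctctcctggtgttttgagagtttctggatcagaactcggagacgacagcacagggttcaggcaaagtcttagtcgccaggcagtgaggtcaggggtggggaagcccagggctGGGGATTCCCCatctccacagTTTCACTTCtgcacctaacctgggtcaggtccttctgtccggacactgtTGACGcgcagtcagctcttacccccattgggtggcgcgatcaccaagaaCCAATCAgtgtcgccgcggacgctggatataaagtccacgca
H2-D1 promoter: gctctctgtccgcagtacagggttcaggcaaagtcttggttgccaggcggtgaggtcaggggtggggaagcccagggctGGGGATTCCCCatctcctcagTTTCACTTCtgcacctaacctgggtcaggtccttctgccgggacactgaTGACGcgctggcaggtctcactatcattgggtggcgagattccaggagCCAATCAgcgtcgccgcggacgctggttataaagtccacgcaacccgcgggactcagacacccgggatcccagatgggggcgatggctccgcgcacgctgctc
At the best fixed offset, with no gap allowed, 176 of the 240 overlapping bases (73.3%) were identical. The Y box motifs are out of register at this offset, so an alignment with gaps could give a higher share. The annotated starts differ in this alignment. The interferon element begins 90 bases before the H2-K1 start and 150 bases before the H2-D1 start. The Y box lies after the listed H2-K1 start, at position 9, and 53 bases before the H2-D1 start. Of all windows, 7.52% held GAANNGAAA and 7.82% held CCAATCA. Of the other members, Erap1 held the longer interferon element of B2m, and Psmb8 a gamma-activated site (TTCNNNGAA, in 8.3% of all windows). No window of the 9 members with a promoter entry held the TCF/LEF motif CTTTGAT, which 3.73% of all windows held.

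**Figure D3:**
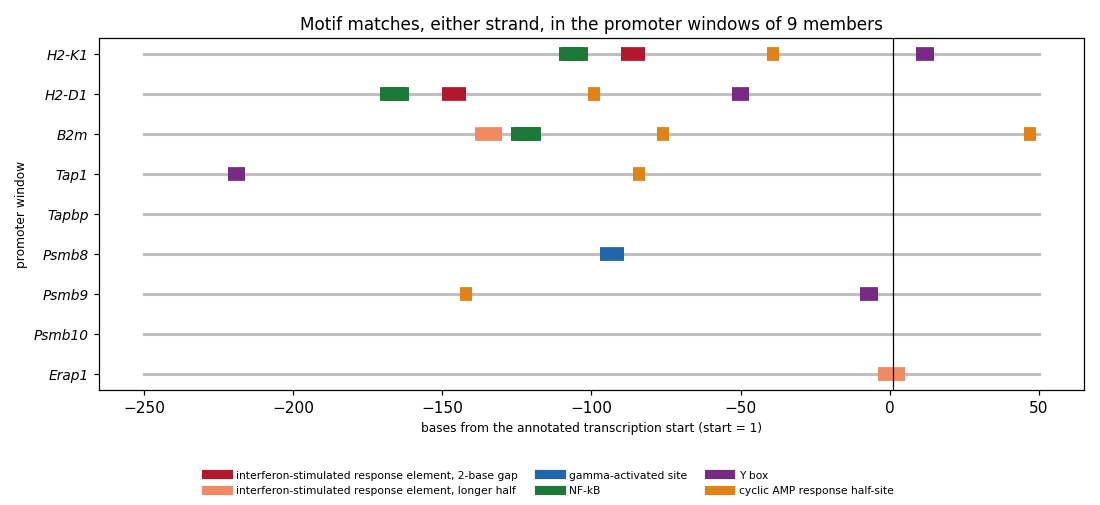
Positions of motif matches on either strand (colored blocks) in the promoter windows of 9 members (y axis), in bases from the annotated transcription start (x axis). H2-K1, H2-D1 and B2m each hold an interferon element and an NF-kB motif upstream of the start, while Tapbp and Psmb10 hold none of the motifs searched.

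Tap1 and Tapbp, which feed and load the heavy chains, were lower with Wnt3a. Tap1, the transporter subunit on chromosome 17 from 34187556 to 34197225, gave 0.686, 0.652 and 0.699 with BSA, 0.638, 0.646 and 0.638 with Rspo2, 0.520, 0.405 and 0.382 with Wnt3a, and 0.549, 0.561 and 0.497 with both. Every Wnt3a array lay below every BSA and Rspo2 array, and the arrays with both overlapped those with Wnt3a. Relative to BSA, Tap1 fell by 0.65 ± 0.11 with Wnt3a (adjusted p = 0.00205) and by 0.34 ± 0.11 with both (adjusted p = 0.0277), and its change with Rspo2 was -0.08 ± 0.11 (adjusted p = 0.617). The change with both was -0.09 (adjusted p = 0.901) in the fit that included slide.

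Compared directly, Tap1 fell by 0.57 ± 0.11 with Wnt3a relative to Rspo2 (adjusted p = 0.0292), the 1 member probe of 16 to do so where 1.09% of all probes fell. On slide 2, which held both groups, the difference was -0.48. This direct difference missed an adjusted p of 0.05 in 15 of 25 alternatives, among them 8 that left out 1 array (BSA replicate 2 or 3, any Rspo2 replicate, Wnt3a replicate 2 or 3, or replicate 2 of both proteins), with values from -0.57 to -0.48 and adjusted p-values from 0.0506 to 0.11. Rspo2 and Wnt3a arrays did not overlap for 7 of the 16 member probes (17.7% of all probes), 0 were called (0.202%), and 0 rose (0.387%). At an unadjusted limma p under 0.05, 6 differed, none by 2-fold, and 3 by the methods' t-test, again without a share over all probes. The change of Tap1 with both missed 0.05 without BSA replicate 1 (0.0669) or 3 (0.0805) and without replicate 1 (0.0547) or 3 (0.0861) of both proteins.

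Tap2, the partner subunit (chromosome 17, 34204479 to 34216321), had 1 probe, with 0.403, 0.378 and 0.325 with BSA, 0.392, 0.332 and 0.354 with Rspo2, 0.233, 0.306 and 0.345 with Wnt3a, and 0.361, 0.306 and 0.290 with both. Its groups overlapped in every comparison. Its change was -0.33 ± 0.15 with Wnt3a (adjusted p = 0.109), and with single arrays left out it ranged from -0.18 without Wnt3a replicate 1 to -0.46 without Wnt3a replicate 3, which alone passed (adjusted p = 0.0424). With the 75th percentile of well-measured probes it was -0.46 (adjusted p = 0.0296).

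Tapbp (chromosome 17, 33919478 to 33929290) was the member whose decrease both of its probes showed. Probe 1 gave 20.6, 21.8 and 21.7 with BSA, 19.5, 18.9 and 20.2 with Rspo2, 16.7, 16.4 and 16.1 with Wnt3a, and 16.1, 15.4 and 15.3 with both. BSA, Rspo2 and Wnt3a arrays formed a descending order without overlap, and Wnt3a and the combination met at 16.1. Probe 2 gave 7.99, 8.68 and 8.54 with BSA, 7.99, 7.36 and 7.74 with Rspo2, 4.97, 4.36 and 6.62 with Wnt3a, and 6.25, 6.67 and 4.81 with both. Every array that received Wnt3a lay below every BSA and Rspo2 array for this probe.

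Relative to BSA, probe 1 fell by 0.38 ± 0.06 with Wnt3a (adjusted p = 0.00227) and by 0.45 ± 0.06 with both (adjusted p = 0.000427), to 76.8% and 73.1% of the BSA level. Probe 2 fell by 0.68 ± 0.15 with Wnt3a (adjusted p = 0.00787) and by 0.52 ± 0.15 with both (adjusted p = 0.0207). The latter missed 0.05 without BSA replicate 2 (0.0604) or 3 (0.0572) and without replicate 3 of both proteins (-0.38, adjusted p = 0.0707). With Rspo2 alone the probes changed by -0.13 each, and neither passed the test. Probe 1 did pass with Rspo2 under quantile normalization (-0.37, adjusted p = 0.0128) and with the 75th percentile of well-measured probes (-0.23, adjusted p = 0.0377), and its quantile-normalized changes with Wnt3a and with both were -0.69 and -0.72. Probe 2 changed by -0.95 with both when slide was included (adjusted p = 0.148).

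Tap1 and Psmb9 start 226 bases apart on opposite strands of chromosome 17, so that their promoter windows share 275 bases. The shared stretch is shown because a single region lies before both genes. It is given from the Tap1 window (RefSeq, GRCm38.p6, chr17:34187306-34187605, plus strand), with the Y box motif (CCAATCA) and the cyclic AMP response core (TGACG) in capitals.
Tap1 promoter: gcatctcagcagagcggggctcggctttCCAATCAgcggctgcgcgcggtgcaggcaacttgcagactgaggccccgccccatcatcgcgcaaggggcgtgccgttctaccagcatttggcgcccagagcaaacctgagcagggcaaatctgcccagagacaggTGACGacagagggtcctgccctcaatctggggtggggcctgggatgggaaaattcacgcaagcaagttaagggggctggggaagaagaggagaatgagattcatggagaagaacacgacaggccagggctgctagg
Psmb9 begins inside this window and is transcribed toward its left end. Neither interferon-stimulated element searched was found in it.

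The immunoproteasome subunits replace the constitutive catalytic subunits and favor peptides that fit class I molecules, and with both proteins Psmb9 fell while Psmb8, by 1 probe, and Psmb10 rose. Psmb9 (chromosome 17, 34182030 to 34187330), in the place of Psmb6, gave 0.227, 0.267 and 0.269 with BSA, 0.285, 0.284 and 0.351 with Rspo2, 0.234, 0.278 and 0.253 with Wnt3a, and 0.211, 0.198 and 0.164 with both. All arrays with both were below all others. Relative to BSA its change was 0.27 ± 0.13 with Rspo2 (adjusted p = 0.158) and 0.01 ± 0.13 with Wnt3a (adjusted p = 0.975), and it fell by 0.42 ± 0.13 with both (adjusted p = 0.0226).

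The interaction, the change with both less the sum of the changes with each alone, was -0.69 ± 0.18 for Psmb9 (adjusted p = 0.0403; 5.31% of all probes had such a lower interaction). Adding Rspo2 to Wnt3a changed Psmb9 by -0.42 ± 0.13 (adjusted p = 0.0972), and by -0.42 on slide 3 alone. In that comparison 0 of 16 member probes were called (background 0.747%), 0 fell (2.49%) and 0 rose (1.78%), and the groups did not overlap for 2 (21.4%). An unadjusted p under 0.05 was found for 4 by limma and for 2 by the methods' t-test, again without a share over all probes. The fall of Psmb9 with both missed 0.05 without BSA replicate 2 (0.0736) or 3 (0.0754) and without replicate 3 of both proteins (-0.31, adjusted p = 0.0784), and was -0.28 (adjusted p = 0.125) under quantile normalization.

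Psmb8 (chromosome 17, 34198195 to 34201454), in the place of Psmb5, was higher with both proteins by 1 of its 2 probes. Probe 1 gave 3.62, 4.16 and 3.96 with BSA, 4.46, 4.44 and 4.93 with Rspo2, 4.38, 4.81 and 4.93 with Wnt3a, and 5.89, 5.13 and 4.59 with both. Every treated array exceeded every BSA array. Probe 1 rose by 0.41 ± 0.10 with both (adjusted p = 0.00998), and its changes with Rspo2 (0.24, adjusted p = 0.128) and Wnt3a (0.27, adjusted p = 0.0699) did not pass. The change with both was 0.23 (adjusted p = 0.722) in the fit that included slide. Probe 2 gave 3.11, 3.74 and 3.63 with BSA, 3.49, 3.47 and 4.66 with Rspo2, 3.65, 3.82 and 3.82 with Wnt3a, and 4.58, 3.80 and 3.69 with both. It overlapped between groups in every comparison and changed by 0.14, 0.11 and 0.20 relative to BSA, the last with an adjusted p of 0.25.

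Psmb10 (chromosome 8, 105935728 to 105938392), in the place of Psmb7, gave 13.2, 12.8 and 12.1 with BSA, 12.1, 12.5 and 13.2 with Rspo2, 13.7, 14.5 and 14.3 with Wnt3a, and 16.3, 15.3 and 15.8 with both. Rspo2 arrays overlapped the BSA arrays, Wnt3a arrays lay above both, and the arrays with both proteins lay above all others. It rose by 0.31 ± 0.07 with both (adjusted p = 0.00504), to 124% of the BSA level, and under quantile normalization the change was 0.09 (adjusted p = 0.272). It was 0.21 (adjusted p = 0.606) with slide in the fit. Its change with Rspo2 was -0.01, and -0.21 under quantile normalization (adjusted p = 0.0461).

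Erap1, the aminopeptidase that trims peptides in the endoplasmic reticulum (chromosome 13, 74639573 to 74693205), was lower with each treatment and showed the other interaction. Probe 1 gave 2.27, 1.79 and 1.76 with BSA, 1.33, 1.25 and 0.960 with Rspo2, 1.24, 1.32 and 1.22 with Wnt3a, and 1.11, 1.45 and 1.55 with both. All treated arrays were below all BSA arrays, and the treated groups overlapped. Relative to BSA it fell by 0.72 ± 0.16 with Rspo2 (adjusted p = 0.0204), by 0.61 ± 0.16 with Wnt3a (adjusted p = 0.0145) and by 0.51 ± 0.16 with both (adjusted p = 0.0267). In the fit that included slide these were -0.53, -0.31 and -0.15, with adjusted p-values of 0.304, 0.694 and 0.891.

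The changes with each protein did not add up: the interaction of Erap1 was 0.83 ± 0.22 (adjusted p = 0.0458; 3.58% of all probes had such a higher interaction). No member probe reached 2-fold in the interaction, where 1.93% of all probes were called. An unadjusted limma p under 0.05 was found for 3, again without a share over all probes. BSA replicate 1 was the highest Erap1 array, and without it the changes were -0.60 (adjusted p = 0.0696), -0.49 (0.0558) and -0.39 (0.0982). The change with Rspo2 also missed 0.05 without Rspo2 replicate 3 (-0.58, adjusted p = 0.0763), and that with both without replicate 1 of both proteins (-0.36, adjusted p = 0.104). The second probe, to another cDNA 22245 bases from probe 1 by the files' coordinates, was well above background on 1 of 12 arrays and was not tested.

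**Figure D4:**
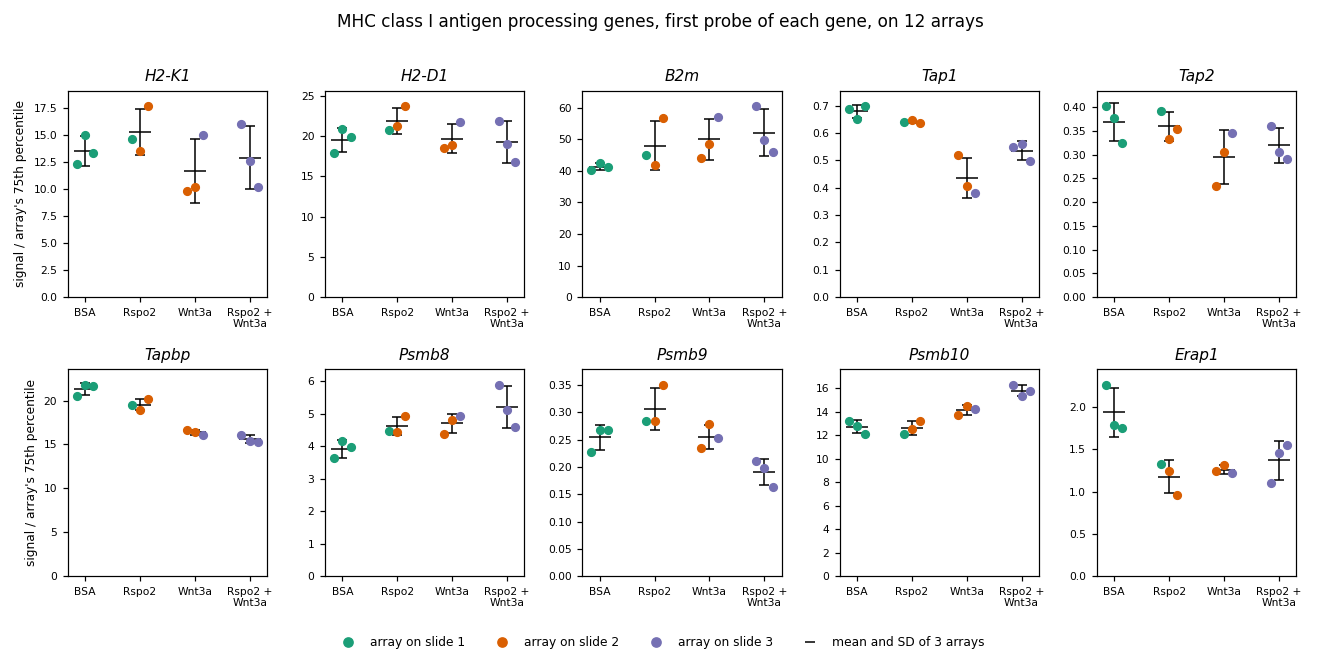
Relative signal (y axis, signal divided by the array's 75th percentile) of the first probe of each of the 10 genes on the 12 arrays; points are arrays colored by slide, and bars give mean and SD of 3 arrays per group (x axis). Tapbp and Tap1 lie lower with Wnt3a, Psmb9 is lowest and Psmb10 highest with both proteins, and the groups of H2-K1 and H2-D1 overlap.

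Other genes of the pathway were taken from lists written from general knowledge, with the brightest detected probe of each gene. The lists were chosen with earlier results of these data known. The constitutive proteasome subunits and their helpers were higher with every treatment: of 7 detected genes, 4 rose with Rspo2 and 6 with Wnt3a, alone or combined, and 0 fell, where 10.9%, 18.3% and 21.9% of all probes rose with Rspo2, Wnt3a and the combination. Under quantile normalization 1, 4 and 3 of the 7 rose. Psmb6, a catalytic subunit of the standard proteasome, gave 30.0, 31.0 and 29.8 with BSA and 50.3, 45.2 and 40.9 with both. It rose by 0.58 with both (adjusted p = 0.0021). Psmb7 rose by 0.60 (adjusted p = 0.0021), Psmb5 by 0.50 (adjusted p = 0.016) and Psme1, a subunit of the proteasome activator, by 0.30 (adjusted p = 0.037). Under quantile normalization the changes with both were 0.29 for Psmb6, 0.33 for Psmb7, 0.23 for Psmb5 (adjusted p = 0.10) and 0.07 for Psme1 (adjusted p = 0.54). Psmb5 missed 0.05 without BSA replicate 1 (0.43, adjusted p = 0.0599) or replicate 1 of both proteins (0.40, adjusted p = 0.0673). Psme1 missed it without any 1 of the BSA arrays or without replicate 1 or 2 of both proteins, at 0.24 to 0.32 and adjusted p-values from 0.0669 to 0.132. With normexp background correction or with slide as a term none of the 7 genes passed in any of the 3 comparisons. Psme2 was not matched to a probe.

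Of the factors that carry interferon signals to class I promoters, Irf9 and Stat2 fell. Of 13 detected regulators, 3, 3 and 4 fell with Rspo2, Wnt3a and both, and 1, 2 and 1 rose, where 5.92%, 13.2% and 17.3% of all probes fell and 10.9%, 18.3% and 21.9% rose. Irf9, the DNA-binding part of the interferon-stimulated complex, gave 0.834, 0.829 and 0.855 with BSA, 0.582, 0.618 and 0.568 with Rspo2, 0.469, 0.400 and 0.393 with Wnt3a, and 0.275, 0.277 and 0.271 with both. No 2 groups overlapped. It fell by 1.61 with both (adjusted p = 3.6e-07) and was called with Wnt3a and with both. Its fall with Wnt3a, 1.00, lay at the 2-fold line and was under it, down to 0.95, without BSA replicate 3, Wnt3a replicate 2 or Wnt3a replicate 3.

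Stat2, its partner, gave 0.337, 0.399 and 0.425 with BSA and 0.131, 0.144 and 0.149 with both, a fall of 1.45 (adjusted p = 2.3e-05) that was called. Its fall with Wnt3a, 1.11, was called too, and was 0.97 without Wnt3a replicate 3. Under quantile normalization, normexp background correction or with slide as a term, 0 of the 13 regulators were called with Wnt3a, and Stat2 changed by -0.97 (adjusted p = 0.0018), -0.89 (adjusted p = 0.15) and -0.96 (adjusted p = 0.091). In the fit that included slide, the falls with both were 1.50 for Irf9 (adjusted p = 0.0054) and 1.03 for Stat2 (adjusted p = 0.094). Irf1, which binds the interferon element of class I promoters directly, gave 15.6, 14.5 and 13.8 with BSA and 14.8, 15.8 and 15.9 with both, a change of 0.09 (adjusted p = 0.43). Nlrc5, the class I transactivator, was not matched to a probe.

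Genes at the other steps were not called in any of the 6 comparisons. Of 12 detected further class I heavy chain genes, 1 fell and 1 rose with both. Of 8 detected loading chaperones 1 fell and 1 rose, and of 8 detected trimming peptidases 1 fell and 2 rose. Of 8 detected interferon receptors and kinases 2 fell and 1 rose, and the ligands Ifng and Ifnb1 were not detected. Of 10 MHC class II genes 4 were detected, without H2-Aa, H2-Ab1 or H2-Eb1. Of these 4, 2 rose with Rspo2 (10.9% of all probes), 1 with Wnt3a (18.3%) and 0 with both. In these comparisons 0 fell, and 1 had a lower interaction (5.31% of all probes). These counts mix few genes, and the background shares with both proteins were 17.3% lower and 21.9% higher.

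**Figure D5:**
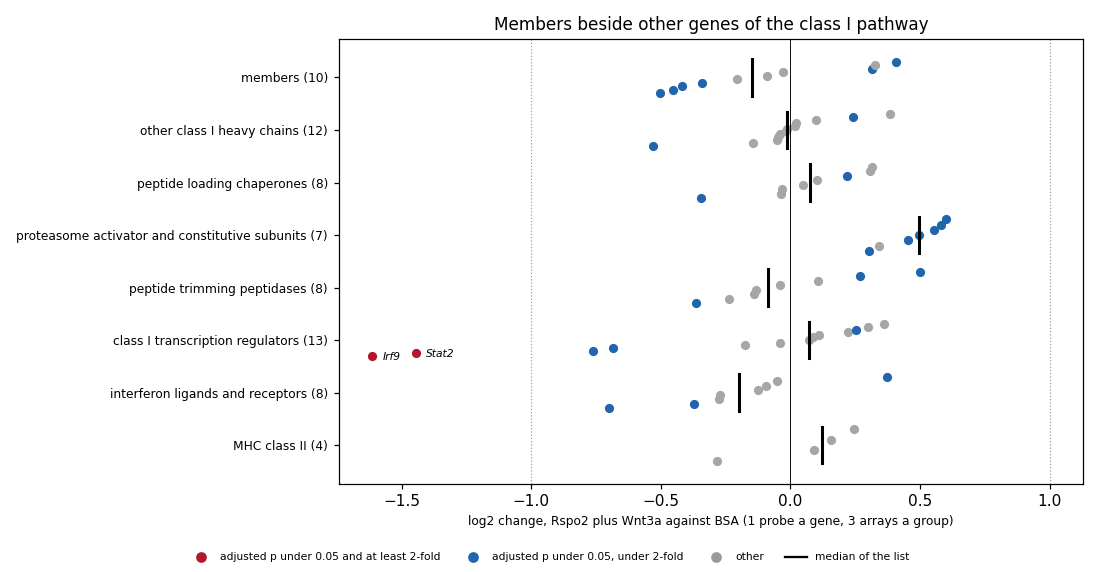
Log2 change with both proteins relative to BSA (x axis) for each detected gene (points, 1 probe a gene) of the members and of 7 wider lists (y axis, number detected in brackets), with the median of each list as a bar. The members lie between -0.51 and 0.41, the proteasome genes all lie above 0, and Irf9 and Stat2 lie at -1.61 and -1.45.

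The members did not vary as a unit across the 12 arrays. The Pearson correlation of each gene's brightest probe with the mean of the other 9 ran from -0.53 for Psmb10 to 0.84 for H2-K1, with 0.67 for H2-D1, 0.75 for Tap2 and -0.03 for B2m. These correlations describe 12 arrays that share groups and slides. The genes outside all lists whose log2 signal was most like the mean profile of the members were Msl1 (r = 0.91), Ano10 (r = 0.91), Zmym5 (r = 0.91), Pak3 (r = 0.91) and Wdyhv1 (r = 0.90), over the same 12 arrays. None of these 5 reached 2-fold in a comparison with BSA.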

How the data were processed

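The authors hybridized RNA of 12 monolayers to 1-color Agilent arrays and made the deposited intensity values with Agilent Feature Extraction 9.5.3.1 (per the submitters' processing notes), which subtracted background; these were not scaled between arrays. The deposited value table, which holds the authors' ratio values relative to the array's 75th percentile, served as an alternative. Its lowest value is 0.01, shared by 27.4% to 40.1% of probes on an array.

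Here, 1327 flagged spot values were left out, the spots of a probe averaged, and log2 signals reduced by the array's 75th percentile. A probe printed more than once had to be well above background on at least 0.5 of its spots. Group means were fitted with limma 3.58.1 in R 4.3.3 over all 12 arrays, with Benjamini-Hochberg adjustment over 22751 detected probes, and checked on simulated data. Signal over background and 3 arrays a group limit the precision; p-values measure the spread between monolayers of 1 cell line.

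All 18 member probes are covered. From the wider lists, genes with calls (at most 5 a list) and Psmb5, Psmb6, Psmb7, Psme1, Psme2, Nlrc5 and Irf1 were named; 1 regulator is not reported here and was left out of its list. Members and lists were chosen with earlier results of these data known. Promoter sequences are from RefSeq (GRCm38.p6); Tap2 had no entry. Alternatives covered background correction, scaling, filters, tests, the replicate block, slide and each array left out.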

Additional observations from a re-analysis of the deposited data

Results flagged for a closer look

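For 2 members the effect of Wnt3a differed with and without Rspo2, by the interaction term of the limma fit over 12 arrays. Of the 16 member probes, 1 had a lower and 1 a higher interaction, where 5.31% and 3.58% of all probes did. The members' counts were thus near the background. The interaction was -0.69 on the log2 scale for Psmb9 (adjusted p = 0.0403), which was lowest on the 3 arrays with both proteins, and 0.83 for Erap1 (adjusted p = 0.0458), which was lower with each protein alone and not lower still with both. Both were under 2-fold. Over the arrays left out in turn, the interaction of Psmb9 ranged from -0.77 to -0.59 and that of Erap1 from 0.69 to 0.97, and in 9 of 12 and 10 of 12 of these fits the adjusted p was not under 0.05, at up to 0.0963 and 0.108. Psmb9 kept it without Rspo2 replicate 1, Wnt3a replicate 1 or replicate 1 of both proteins, and Erap1 without Rspo2 replicate 1 or replicate 1 of both proteins. With slide as a term the values were -0.58 (adjusted p = 0.317) and 0.69 (adjusted p = 0.321).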

How the results depend on the processing

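The 6 counts of called member probes (0 with Rspo2, 1 with Wnt3a, 1 with both, 0 for both against Wnt3a, 0 for Wnt3a against Rspo2 and 0 for the interaction) were recomputed under 26 alternatives, of which 12 left out 1 array. With no fold requirement they were 2, 6, 9, 0, 1 and 2. With the 75th percentile computed from well-measured probes only, 1 probe (B2m probe 3) was called with Rspo2. With slide as a term, 0 were called with Wnt3a and 0 with both. Leaving out 1 array gave 0 to 1 with Rspo2 (1 without BSA replicate 3 or Rspo2 replicate 3) and 1 with Wnt3a and with both in each case. In the paired analysis, with the replicate block, the counts were 0, 1, 1, 0, 0 and 0. The correlation of deviations between same-numbered arrays ran from -0.41 to 0.27, so the numbers were not taken as pairs; under the block 4 of 20 values lost an adjusted p under 0.05.

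Of 20 single changes past an adjusted p of 0.05, 18 were not past it with normexp background correction, 20 with slide as a term, 9 with all probes tested, 12 of 18 with the methods' t-test after adjustment, and 1 with the authors' value table. One value reversed: H2-D1 probe 1 with Wnt3a was -0.28 under quantile normalization (adjusted p = 0.038) against 0.01. A further 104 values with no adjusted p under 0.05 in either fit changed sign. Background correction or scaling moved the median of all probes by over 0.1 in places. This median went to 0.15 (Rspo2) and -0.16 (interaction) with normexp background correction. With scaling by the percentile of well-measured probes it went to -0.12 (Wnt3a) and 0.10 (interaction). The cause of these differences was not tested.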
